A study of Drosophila melanogaster with 9 samples.

Results

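RNA that came down with non-specific mouse IgG was compared with RNA of the lysate it was taken from. The samples were chosen by the antibody given in the labels and are 3 IgG control libraries and 3 input libraries, 6 of the 9 libraries of the series. All came from Drosophila melanogaster ovaries of the genotype larp::GFP::FLAG, dissected 1 to 3 days post-eclosion, so the tagged allele of larp is shared by both groups. Larp is an RNA-binding protein of the La-related family, and the other 3 libraries, which hold RNA recovered with anti-FLAG antibody, are described only where a value of theirs is needed. The input libraries hold 10% of the lysate set aside before the precipitation. Both kinds of RNA were selected for poly(A) tails and fragmented for 13 minutes before strand-specific library preparation. The labels do not say how many animals went into a library or whether the replicates were separate dissections, so p-values measure the spread between these libraries, which may be technical.

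An antibody without a target in the lysate should hold no RNA specifically. What remains after washing is RNA that sticks to beads, tube walls or the antibody, or that is carried along in large complexes, and it is used as the background of an RNA immunoprecipitation. The ovary consists of germline cells, the nurse cells and the oocyte, wrapped in somatic follicle cells. Each string of egg chambers is held in a sheath that contains muscle, and fat body lies next to the organ in the abdomen.

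The IgG control libraries held 14105298, 17571309 and 11316201 counts in replicates 1 to 3, and the input libraries 12506825, 13000076 and 12468164. At these totals a floor of 3 counts lies between 0.171 and 0.265 CPM (counts scaled to a common library total), and it covers counting error only. A count of 10 or more was reached by 7009, 7447 and 7698 genes on IgG against 7765, 7854 and 7767 in the lysate, and IgG control replicate 1 was the lowest of the 6. Markers of the labelled tissue were present in every library. The germline transcript osk, which encodes the pole plasm organizer Oskar, had 16174, 25786 and 20752 counts in IgG control against 18540, 19227 and 20297 in input. Cp38, a chorion protein gene of follicle cells, had 77395, 97028 and 64745 counts in IgG control against 64564, 65816 and 71607 in input. Across the 7594 genes tested, Pearson's r lay between 0.935 and 0.968 for pairs of input libraries and between 0.837 and 0.888 for pairs of IgG control libraries, on log2 values of CPM + 0.5. Genes are not independent replicates, and these correlations are a description.

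Relative to each other, most transcripts kept the proportions of the lysate. The median log2 fold change of IgG control against input was -0.0024 over the 7594 genes, with quartiles of -0.26 and 0.26. The scaling between libraries sets the median near 0, so only the spread around it describes the proportions. The values do not show how much of the RNA was held. No gene passed an adjusted p of 0.05 and a change of at least 2-fold in edgeR's quasi-likelihood test without a replicate block, which is 0% of the genes tested in either direction. The smallest adjusted p was 0.102. At an unadjusted p under 0.05 there were 191 genes with a higher level in IgG control (2.52%) and 274 with a lower one (3.61%). The 3 IgG control values lay above the 3 input values for 417 genes (5.49%) and below them for 628 (8.27%). DESeq2 on the same genes gave an adjusted p for 7525 and called 19 of those higher (0.252%) and 6 lower (0.0797%). Same-numbered libraries deviated together, and edgeR with the replicate number as a block called 6 genes higher (0.079%) and 2 lower (0.0263%). The 8 genes of that fit were Msp300, Muc12Ea, Gs2, sls, bcd and mt:ND1, higher in IgG control, and mi and Sf3b3, lower.

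The most abundant transcripts of the lysate stayed abundant. Mitochondrial large ribosomal RNA, mt:lrRNA, was the most counted transcript of input, with 301145, 443221 and 443197 counts there and 290009, 584877 and 313611 in IgG control. Hsc70-4, a constitutive chaperone, had 66857, 69005 and 77632 counts in input against 70633, 101551 and 66324 in IgG control. Hsp83, which encodes the Hsp90 chaperone, had 51635, 50974 and 62692 in input against 57017, 69399 and 57250 in IgG control. The groups overlapped for all of these. The lowest ratio among the 10 most abundant genes belonged to eEF2, the elongation factor that moves the ribosome along the mRNA. It had 69421, 67294 and 83550 counts in input against 49480, 64859 and 53026 in IgG control, and the groups did not overlap after scaling (log2 fold change -0.52, SE 0.18, edgeR adjusted p 0.761). With the block its edgeR adjusted p was 0.0367, at a change below 2-fold.

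**Figure D1:**
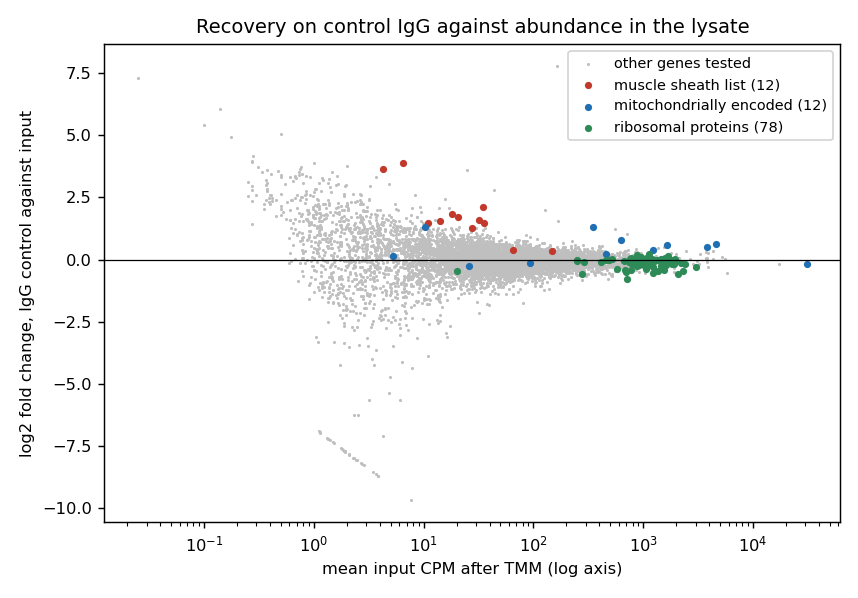
Each point is 1 gene tested, with its mean input level in CPM after TMM scaling (log axis) against its log2 fold change of IgG control against input. Muscle sheath genes lie above 0 in 12 of 12 cases, ribosomal protein genes lie near 0, and the diagonal of points at the lower left holds genes without counts in IgG control. Genes at the far left passed the filter on low counts through their IgG control values, so that their height is fixed by the filter.

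Scarce transcripts were recovered erratically. Among genes with at least 50 counts in both input libraries of the other replicate numbers, 201, 46 and 27 had no count in IgG control replicates 1 to 3. In the input libraries treated the same way, 2, 1 and 16 had none. The mean was 91.3 ± 95.4 (SD, n = 3) in IgG control against 6.33 ± 8.39 in input (exact two-sided permutation p = 0.1, the smallest that 3 against 3 libraries can give). IgG control replicate 1 decides the size of this difference, which was 85 genes with it and 30.2 without it.

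The missing genes were those at low levels in the lysate. At 10 to 29 counts in the other inputs, 70.7% of genes had no count in IgG control replicate 1, 54.1% in replicate 2 and 46.8% in replicate 3. The input libraries lacked 24.8%, 19.5% and 37.9% of such genes. At 100 to 299 counts the shares were 12.4%, 2.92% and 1.25% in IgG control against 0.0884%, 0.183% and 0.673% in input. At 1000 counts and over, 1 gene was without counts in 1 of the IgG control libraries and none in the others. Every IgG control library lay above its same-numbered input library in the bins below 300 counts, and replicate 3 lay the closest.

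**Figure D2:**
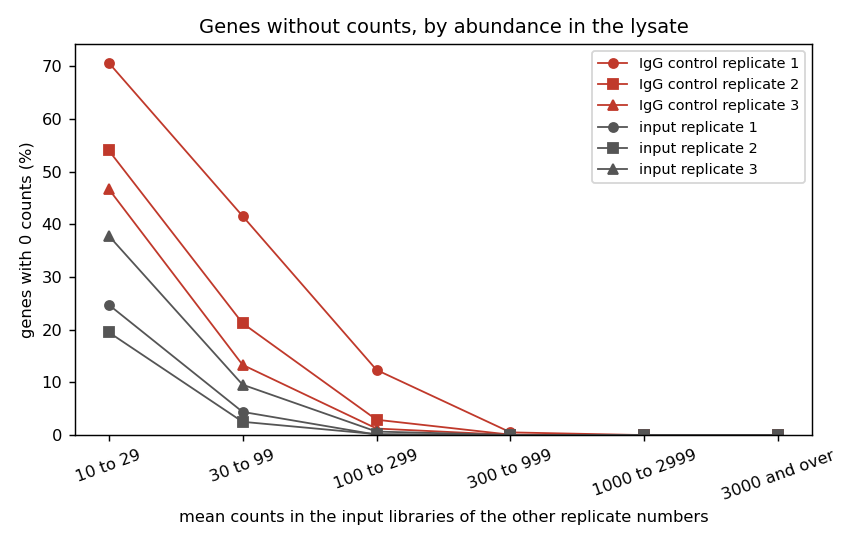
Share of genes with 0 counts (%) in each library, by the mean count of the gene in the input libraries of the other replicate numbers. IgG control replicate 1 falls from 70.7% in the lowest bin to 12.4% at 100 to 299 counts, and the 3 IgG control lines lie above the 3 input lines in the 3 lowest bins.

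Agreement between replicates followed the same order. The median over genes of the SD of log2 values between the 3 libraries was 1.59 in IgG control against 0.66 in input for genes at 3 to 10 CPM. It was 0.41 and 0.24 at 30 to 100 CPM, and 0.18 and 0.21 at 1000 CPM and over. Replicates of the control precipitation spread more than those of the lysate for scarce genes and no more for the most abundant ones.

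The slope of log2 level on log2 abundance in the other inputs was 0.949 ± 0.012 (SD, n = 3) in IgG control against 0.974 ± 0.010 in input, over 7815 genes. The difference was -0.025 (exact permutation p = 0.1, adjusted over 3 slopes 0.3), and it was -0.023, -0.024 and -0.029 in pairs 1 to 3. Without input replicate 1 it was -0.0086.

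A few genes of the lysate had no count on IgG at all. There were 30 genes with at least 10 counts in every input library and 0 in all 3 IgG control libraries, and 2 genes with the reverse. CG12929 was the only one with at least 50 counts in every input. It had 92, 90 and 109 counts in input, and its mean was 35.2-fold the floor of 3 counts per IgG control library. CG2082 had 22, 89 and 38 counts in input, CG18234 had 13, 55 and 76, rempA had 16, 59 and 64, and CG13623 had 67, 43 and 26. The gene rempA encodes a protein of intraflagellar transport. Their input values vary severalfold among themselves. By counting error alone, a count of 0 allows up to the floor in each IgG control library. Single IgG control libraries also missed genes with 100 to 299 counts in the other inputs, so the fold over the floor is not a lower bound.

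The piRNA pathway gene cuff, which encodes the Cutoff protein of germline piRNA clusters, was nearly lost as well. It had 155, 96 and 58 counts in input against 0, 0 and 13 in IgG control, where the only library with counts was replicate 3. It did not pass the test in edgeR (log2 fold change -4.36, SE 2.14, adjusted p 0.818), and without IgG control replicate 3 all remaining IgG control values were 0. Of the 21 piRNA pathway genes tested, 3 had a lower level at an unadjusted p under 0.05, where 3.61% of all genes did, none a higher one, and the median log2 fold change was -0.09 beside -0.0024 over all genes.

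In the other direction, CG32834 had 225, 58 and 98 counts in IgG control against 0 in all input libraries, with a mean 39.8-fold the floor. It overlaps another gene on its strand, so the assignment of its reads is uncertain. CG42337 had 225, 132 and 0 counts in IgG control and none in input. Nepl11, CG10177 and CG32032 had 268, 256 and 246 counts in IgG control replicate 1 and 0 in the 5 other libraries, so each rests on 1 library.

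Muscle transcripts stood higher in IgG control than any other list examined with at least 5 genes tested. Of 14 sheath muscle markers, 12 were found and tested, and 12 of 12 had a log2 fold change above 0, with a median of 1.57. At an unadjusted p under 0.05 there were 10 of the 12 higher and none lower, where 2.52% of all genes were higher. The groups did not overlap for 7 of the 12, where 5.49% of all genes lay above without overlap, and 9 of the 12 were higher in all 3 pairs, where 14% of all genes were. Together these 12 genes took 0.144%, 0.0486% and 0.115% of the counts in IgG control against 0.0296%, 0.0393% and 0.0566% in input. Median log2 ratios in pairs 1 to 3 were 2.63, 0.81 and 1.13, so that pair 1 was the farthest from the lysate and pair 2 the nearest.

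The giant proteins of the sarcomere had the highest ratios. The gene sls (FBgn0086906, chromosome 3L:2039681-2115611 in BDGP6.54), which encodes the titin-like protein Sallimus, had 957, 273 and 851 counts in IgG control against 20, 45 and 95 in input. Its log2 fold change was 3.64 (SE 0.73), with an edgeR adjusted p of 0.536 without the block and 0.0323 with it, and the log2 fold change was 4.45 without input replicate 3. The gene bt (chromosome 4:724400-776474), which encodes projectin, had 1394, 230 and 1991 counts in IgG control against 73, 108 and 70 in input (log2 fold change 3.90, SE 0.79, edgeR adjusted p 0.573). Without IgG control replicate 3 its log2 fold change was 3.13. The lowest IgG control library of both genes was replicate 2. The groups did not overlap for either, which was part of a rule that named them. DESeq2 called both, as it did zormin, Mhc, Mlp84B and TpnC73F.

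The gene zormin encodes a titin-related protein of the Z-disc and M-line and lies next to sls on chromosome 3L. It had 821, 382 and 354 counts in IgG control against 15, 81 and 47 in input. Mlp84B, a LIM-domain protein gene of muscle, had 862, 148 and 538 counts in IgG control against 42, 76 and 66 in input. Both had IgG control values above all input values, with log2 fold changes of 3.34 (SE 0.68) and 3.04 (SE 0.69). Lack of overlap was part of the rule that chose both.

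Thick and thin filament genes lay between these and the lysate. Mhc, the muscle myosin heavy chain, had 3470, 979 and 1619 counts in IgG control against 246, 397 and 659 in input (log2 fold change 2.12, SE 0.55). TpnC73F, a troponin C gene, had 630, 671 and 467 counts in IgG control against 145, 177 and 218 in input, with the narrowest spread of the list in IgG control. Its log2 fold change was 1.57 (SE 0.37, edgeR adjusted p 0.573). The values of Mlc1 (a myosin light chain), Prm (paramyosin), up (troponin T), Zasp66 (a Z-disc protein), Mp20 (a calponin-like protein) and Tm2 (tropomyosin) ran from 1.85 down to 1.27.

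The lowest values of the list belonged to Mlc2 and Act57B. Mlc2, the regulatory light chain, had a log2 fold change of 0.41 and Act57B, a muscle actin gene, one of 0.34, and the groups overlapped for both. Act87E, another muscle actin gene, had 776, 400 and 241 counts in IgG control against 58, 127 and 116 in input (log2 fold change 2.09, SE 0.56). Actin genes share much of their sequence, so that reads can be split between them by the counting. Act5C, the main cytoplasmic actin, had 49393, 68679 and 42486 counts in IgG control against 46859, 49955 and 46935 in input.

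**Figure D3:**
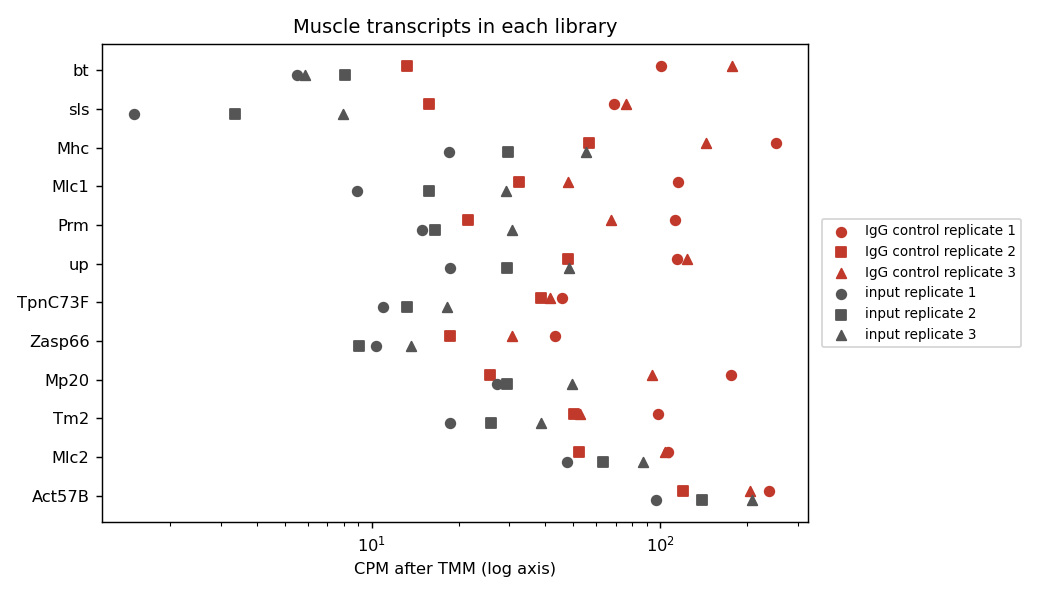
Level of the 12 muscle sheath genes tested in each of the 6 libraries, in CPM after TMM scaling (log axis), ordered by fold change. IgG control values lie above all input values for 7 of the 12 genes, and IgG control replicate 2 is the lowest IgG control library for all 12.

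Msp300 had the smallest p of all genes in edgeR without the block. With the block that was mt:ND1, and in DESeq2 it was Muc12Ea. Msp300 encodes the fly nesprin, a giant protein that ties nuclei to the cytoskeleton in muscle and in nurse cells (chromosome 2L:5100877-5207002). It had 1637, 1114 and 766 counts in IgG control against 193, 220 and 189 in input, and every IgG control library was well above every input library. Lack of overlap was part of a rule that named Msp300. Its log2 fold change was 2.42 (SE 0.33), with an edgeR adjusted p of 0.102 without the block and 0.00412 with it. It overlaps 4 other genes on its strand, so a part of its reads cannot be assigned with certainty.

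Transcripts of fat body and haemolymph proteins were also high, in fewer genes. The gene apolpp encodes the precursor of the lipoprotein lipophorin, which fat body releases. It had 10127, 2458 and 563 counts in IgG control against 374, 404 and 197 in input (log2 fold change 3.62, SE 1.15, edgeR adjusted p 0.777). Without IgG control replicate 1 the log2 fold change was 1.95, and with the block it was 2.82. Lsp2, a larval serum protein gene, had 836, 927 and 68 counts in IgG control against 217, 128 and 24 in input. IgG control replicate 3 was the lowest IgG control library for both, and the groups overlapped for Lsp2. Of the 8 listed genes, 4 were tested and 2 of them, apolpp and Lsp2, were higher at an unadjusted p under 0.05, where 2.52% of all genes were. Only 2 of the 4 were higher in all 3 pairs, where 14% of all genes were, and the median input level of the 4 was 5.57 CPM. The fitted values of all 4 were above 0, but that of Lsp1beta, another larval serum protein gene, rests on 1 library. It had 0, 284 and 0 counts in IgG control against 37, 15 and 19 in input, was lower in 2 of 3 pairs, and had a log2 fold change of 1.57 without the block and -4.41 with it. Fbp1, Fbp2 and Lsp1alpha had 0 counts in all 6 libraries.

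Of 4 haemocyte genes tested, 3 had a log2 fold change above 0, with a median of 0.37, and none had an unadjusted p under 0.05. Pxn, which encodes peroxidasin, was the highest, with 464, 57 and 133 counts in IgG control against 68, 51 and 141 in input. Hml was the lowest and had 0, 0 and 26 counts in IgG control against 28, 41 and 43 in input, and the collagen gene Col4a1 had 2383, 2920 and 2865 against 1190, 1682 and 2894. Of 10 follicle cell markers tested, 7 had a log2 fold change above 0 and none had an unadjusted p under 0.05. Of 6 germline markers, 1 was above 0 and none had an unadjusted p under 0.05, and the median was -0.23. In bulk libraries, the level of a transcript does not tell which cells it came from. The part of muscle or fat body in the IgG control values was not tested.

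Gs2, Muc12Ea and an unnamed feature were also high. Gs2, a glutamine synthetase gene on chromosome X, had 1134, 635 and 400 counts in IgG control against 102, 166 and 59 in input (log2 fold change 2.62, SE 0.50, edgeR adjusted p 0.507, 0.0265 with the block). Muc12Ea, a mucin gene on chromosome X, had 10549, 7955 and 3306 counts in IgG control against 1918, 1423 and 1577 in input (log2 fold change 1.98, SE 0.30, edgeR adjusted p 0.221, 0.0402 with the block). A feature without a symbol, FBgn0030294, had 2677, 2627 and 2036 counts in IgG control against 1191, 1153 and 1260 in input. The groups did not overlap for any of them, which was part of a rule that named them. FBgn0030294 had the tightest replicates of these genes.

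Among localized maternal mRNAs, bcd had the largest value. The gene bcd encodes Bicoid, the anterior determinant whose mRNA is held at the front of the oocyte (chromosome 3R:6755842-6759466). It had 2378, 3451 and 1569 counts in IgG control against 1432, 1093 and 774 in input, with no overlap between the groups after scaling. Lack of overlap was part of a rule that named bcd. Its log2 fold change was 1.00 (SE 0.23), with an edgeR adjusted p of 0.573 without the block and 0.0323 with it. Of the 13 localized mRNAs tested, bcd was the only one with an unadjusted p under 0.05, where 2.52% of all genes were higher. The median was -0.01. The gene grk, whose mRNA marks the dorsal-anterior corner of the oocyte, had 400, 313 and 97 counts in IgG control against 299, 360 and 232 in input. Those groups overlapped.

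Transcripts made in mitochondria were among the lists with positive medians. Of 12 mitochondrially encoded genes tested, which include both mitochondrial ribosomal RNAs, 9 had a log2 fold change above 0 with a median of 0.44. At an unadjusted p under 0.05, 3 of the 12 were higher and none lower, where 2.52% of all genes were higher. The medians in pairs 1 to 3 were 0.85, 0.49 and 0.27. The gene mt:ND1, a subunit of respiratory complex I, had 15964, 9752 and 10064 counts in IgG control against 5745, 2623 and 4926 in input. Its log2 fold change was 1.33 (SE 0.33), with an edgeR adjusted p of 0.649 without the block and 1.02e-05 with it. The gene mt:CoI, a cytochrome c oxidase subunit and by counts the largest of the mitochondrial mRNAs, had 89882, 125399 and 81929 counts in IgG control against 42198, 67571 and 65717 in input (log2 fold change 0.61, SE 0.21). The large ribosomal RNA mt:lrRNA, the most counted member of the list, was at -0.17 (SE 0.24).

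Lists of nuclear genes whose products work in the same organelle had medians near 0. Mitochondrial ribosomal proteins had a median of 0.02 over 70 genes, with 2 higher and 2 lower at an unadjusted p under 0.05. Over all genes, 2.52% were higher and 3.61% lower at that threshold. Complex I subunits encoded in the nucleus had a median of -0.01 over 32 genes. The difference between mitochondrially and nuclear encoded genes was not tested.

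**Figure D4:**
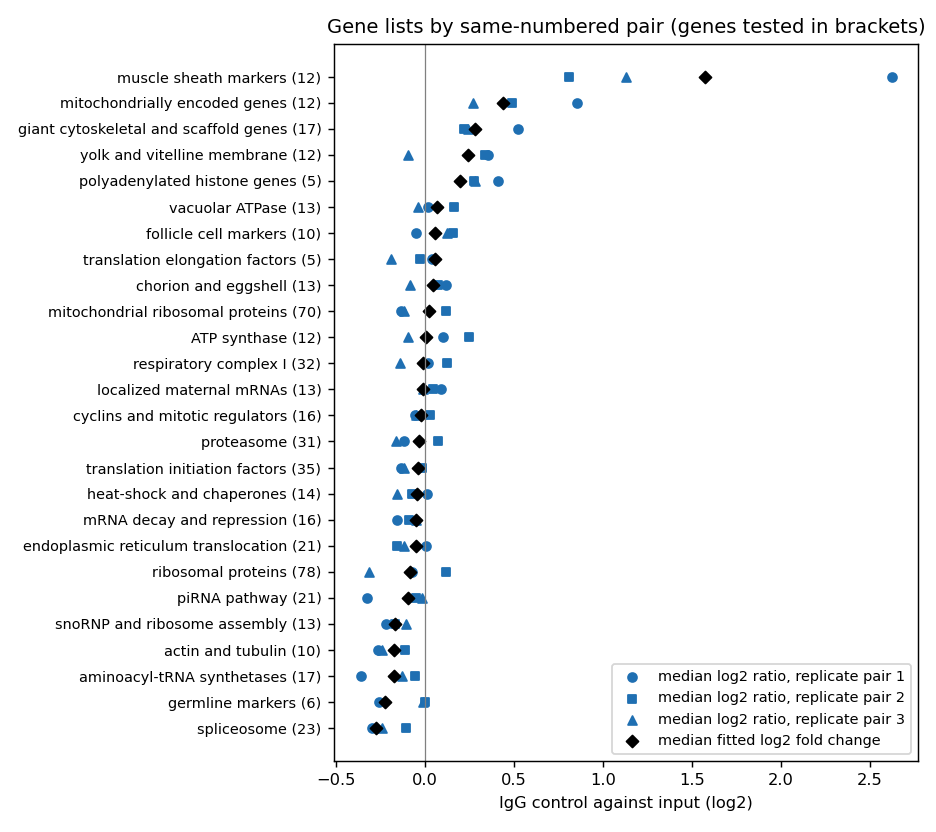
Median log2 value of IgG control against input for each list with at least 5 genes tested, for each same-numbered pair (points) and for the fitted fold change (diamonds). Muscle sheath genes lie apart at 1.57, mitochondrially encoded genes at 0.44, and spliceosome genes are at the low end at -0.27.

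Several lists of the translation and splicing machinery had medians below 0. Of 78 ribosomal protein genes tested, 17 had a log2 fold change above 0, with a median of -0.09. At an unadjusted p under 0.05 there were 11 lower and none higher, where 3.61% of all genes were lower. The median input level of the list was 1080 CPM, and lower values were more frequent among abundant genes of any kind. At that threshold 11 of 127 genes at 1000 CPM and over were lower, and 41 of 456 at 300 to 1000 CPM. Ribosomal protein genes are part of these counts. The medians of the list in pairs 1 to 3 differed, at -0.07, 0.12 and -0.31, so the sign was not the same in every pair. RpS18, a small subunit gene, had 5233, 6051 and 5958 counts in IgG control against 9094, 6425 and 11579 in input (log2 fold change -0.77, SE 0.25). RpL4, of the large subunit, had 17604, 24513 and 16847 counts in IgG control against 25815, 24421 and 28730 in input (log2 fold change -0.56, SE 0.15). RpS13 was at the other end of the list, at 0.21.

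Spliceosome genes had a median of -0.27 over 23 tested genes, with 8 above 0. The groups did not overlap for 8 of the 23, all lower, where 8.27% of all genes lay below without overlap. Those with an unadjusted p under 0.05 numbered 2, each lower, where 3.61% of all genes were lower. Sf3b3, a subunit of the SF3b complex that recognizes the branch site, had 198, 180 and 546 counts in IgG control against 1043, 710 and 1314 in input. Its log2 fold change was -1.73 (SE 0.54), with an edgeR adjusted p of 0.739 without the block and 0.0205 with it, and the log2 fold change was -2.71 without IgG control replicate 3. It overlaps 10 other features on its strand, so its reads are assigned with little certainty. Aminoacyl-tRNA synthetases, which charge tRNAs with amino acids, had a median of -0.18 over 17 genes, of which 4 were above 0. Only 1, GlyRS, was lower at an unadjusted p under 0.05, where 3.61% of all genes were.

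Single genes with the smallest p on the low side came from varied processes. The gene mi, known as minus, had 860, 1033 and 687 counts in IgG control against 2023, 1453 and 1869 in input (log2 fold change -1.19, SE 0.21). Its edgeR adjusted p was 0.365 without the block and 0.0282 with it. The gene raptor, a subunit of the TORC1 growth kinase complex, had 344, 357 and 338 counts in IgG control against 952, 679 and 856 in input (log2 fold change -1.36, SE 0.31, edgeR adjusted p 0.573). IgG control counts of raptor were nearly alike before scaling, and were 24.9, 20.6 and 30.1 CPM after it. The groups did not overlap for either gene.

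AP-1mu, an adaptor subunit of clathrin-coated vesicles, had 615, 1109 and 705 counts in IgG control against 1866, 1445 and 1254 in input. CG7326 had 411, 698 and 329 against 1167, 803 and 952, and CG3651 had 797, 609 and 625 against 1406, 1296 and 1250. The log2 fold changes of these genes were -1.05, -1.20 and -1.05. CCT5 (a chaperonin subunit), ctrip (a ubiquitin ligase), fs(1)N (an eggshell protein), HIPP1 (a partner of heterochromatin and insulator proteins) and msl-1 (of the dosage compensation complex) ran from -0.83 to -0.61. All lay below input without overlap and in 3 of 3 pairs, as did mi and raptor, which was part of the rule that chose them. Over all genes, 18% were lower in 3 of 3 pairs.

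Transcript length was examined as the summed length of a gene's annotated exons. The slope of log2 level on log2 length was 0.557 ± 0.074 (SD, n = 3) in IgG control against 0.552 ± 0.027 in input. The difference was 0.0043 (exact permutation p = 0.9), and it was 0.054, -0.063 and 0.022 in pairs 1 to 3, so that it had no constant sign and was smaller than the spread between libraries. The slope on the number of exons differed by 0.012 (exact permutation p = 0.8).

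Genes of 500 to 999 bases had a median log2 fold change of 0.10 over 872 genes, those of 2000 to 3999 bases -0.05 over 2415, and those of 8000 to 15999 bases 0.03 over 342. The longest class stood apart by its median. The 31 genes of 16 kb and over had a median of 0.38, with 26 above 0, 7 higher and none lower at an unadjusted p under 0.05, where 2.52% of all genes were higher. Their share of counts was 0.437%, 0.378% and 0.479% in IgG control against 0.347%, 0.332% and 0.360% in input, so each IgG control library was above each input library. Without 4 muscle genes (bt, sls, Msp300 and Strn-Mlck) the median was 0.30, with 22 of 27 above 0. Of the 7 genes higher at that threshold, bt, sls and Msp300 were among these muscle genes and the others were not. Without IgG control replicate 3 the median of all 31 was 0.21.

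Genes of 16 kb and over outside muscle differed among themselves. Values above input, chosen after they were seen, included shot, which encodes the spectraplakin that links actin to microtubules. It had 1963, 1865 and 1809 counts in IgG control against 998, 958 and 1152 in input (log2 fold change 0.75, SE 0.22, edgeR adjusted p 0.672). After scaling these were 142, 108 and 161 CPM against 75.1, 71.8 and 96.7. The gene spen, of a nuclear RNA-binding protein, had 4800, 5414 and 3818 counts in IgG control against 3052, 3517 and 2676 in input (log2 fold change 0.48, SE 0.14). The gene kis, a chromatin remodeler with 19229 bases and the most counted of the list of giant genes, had 10344, 15574 and 8007 counts in IgG control against 9965, 9101 and 7190 in input, and the groups overlapped. The gene unc-13, also chosen after its values were seen, was the 1 gene of the class that lay below input without overlap after scaling, with 2063, 2854 and 1693 counts in IgG control against 2286, 2410 and 2038 in input. Just below the limit, at 15702 bases, Bruce, an inhibitor of apoptosis, had 4929, 4536 and 2985 counts in IgG control against 2473, 2394 and 2342 in input (log2 fold change 0.65, SE 0.16). The gene nej, which encodes the CBP acetyltransferase and has 15932 bases, was at -0.25 (SE 0.18).

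**Figure D5:**
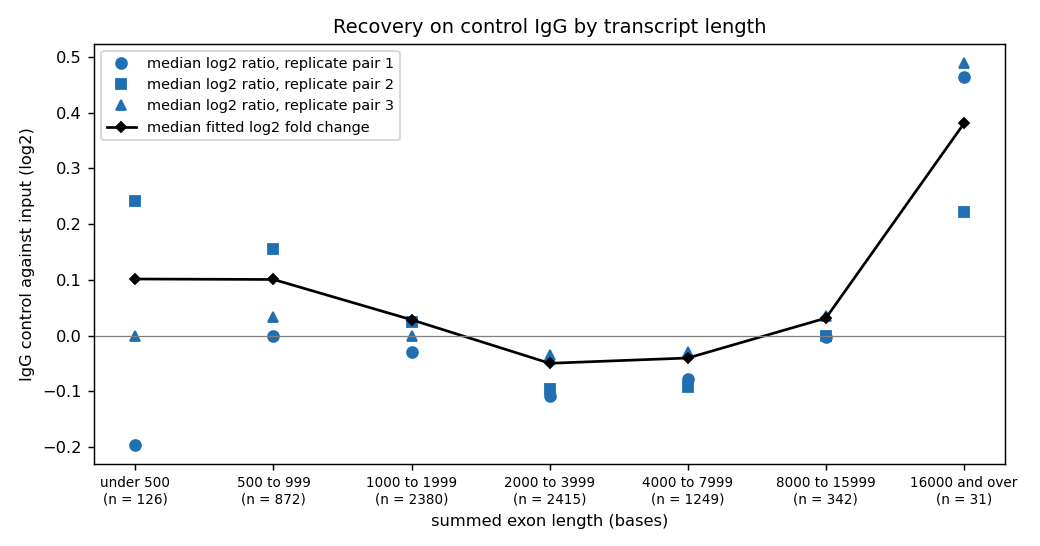
Median log2 value of IgG control against input by summed exon length in bases, for each same-numbered pair (points) and for the fitted fold change (line), with the number of genes in each class. Classes between 500 and 15999 bases lie between -0.05 and 0.10 in the fit, and the class of 16 kb and over is at 0.38. Genes without counts in both libraries of a pair enter the pair medians at 0.

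The bait was measured in the same libraries. The larp transcript had 2127, 3295 and 5983 counts in IgG control against 1971, 2616 and 5333 in input, highest in replicate 3 of both groups (log2 fold change 0.15, SE 0.63). La had 2776, 4202 and 2424 counts in IgG control against 2862, 2963 and 2422 in input, and Larp7 had 1640, 1698 and 1082 against 1413, 1455 and 1152. The groups overlapped for these 3 genes and for Larp4B, and none of the 4 had an unadjusted p under 0.05.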

How the data were processed

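The 3 IgG control and 3 input libraries were grouped by the labels. Per the labels, RNA was poly(A)-selected, and the authors deposited raw counts per FlyBase gene. The submitters' processing notes name HISAT2 2.1.0, featureCounts 1.4.6 and the dm6 build, and the strand setting of the counting was not given in the sources used here. Symbols matched 16647 of 17024 features, and the other 377, with 5.13% to 12.5% of counts per library, stayed in totals and tests. Positions and exon lengths came from Ensembl release 115 (BDGP6.54, dm6 coordinates).

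Groups were fitted with edgeR 4.0.16 in R 4.3.3 (TMM, filterByExpr, robust quasi-likelihood F test, Benjamini-Hochberg adjustment), and a call needed an adjusted p under 0.05 and a 2-fold change. The standard error was derived from the F statistic. DESeq2 1.42.0 was run on the same genes. CPM are TMM-scaled. Slopes used log2(CPM + 0.5) for genes averaging 10 counts or more, with exact two-sided permutation tests in scipy 1.17.1. Replicate numbers come from the titles. Same-numbered libraries correlated in their deviations from the group means at 0.191, 0.183 and 0.421 over the 6957 genes averaging 50 counts or more, so the numbers were taken to pair them. No 2 libraries of 1 group agreed within sampling noise (chi-square per degree of freedom at least 31.9). In simulated counts for this comparison, over 7594 genes, 63% of genes changed 4-fold (log2 of 2) were called without the block. There were 5 false calls. With the block 66% of these genes were called, with 11 false calls. The simulation gave a gene the same spread in both groups and no pairing, unlike the scarce genes here.

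The members and the 30 gene lists were chosen with earlier results of these data known. Genes were named by a rule: called genes, up to 10 per direction with the smallest p, no overlap and 3 of 3 pairs in 1 direction, genes called with the block, the 10 most abundant, up to 5 at 0 in either group, the extremes and the most counted member of each list, and larp, La, Larp4B and Larp7. Mhc, up, Mlc1, Tm2, Prm, Mp20, Zasp66, Mlc2, Strn-Mlck, Bruce, shot, spen, unc-13, Lsp2, Fbp1, Fbp2, Lsp1alpha, His2Av, RpL4, GlyRS and FBgn000003 were chosen after their values were seen. Of the genes named, Act57B, CG2082, CG32834, Mlp84B, Msp300, Pxn, RpL4, Sf3b3, ctrip, eEF2, kis and raptor overlap another feature on their own strand. Their counts are uncertain. Without the strand setting the same holds for genes that overlap a feature on the other strand, among them sls, apolpp, Muc12Ea, mi, cuff, CG12929, AP-1mu, CCT5, CG7326 and CG3651. GC content was not examined, since no genome sequence was used here.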

Additional observations from a re-analysis of the deposited data

How the results depend on the processing

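The fit without a replicate block called 0 genes higher and 0 lower. With the replicate block 6 were called higher and 2 lower, with DESeq2 19 and 6, without the filter on low counts 1 and 0, and with all 9 libraries in 1 fit 1 and 0. Scaling by total counts, or leaving out the most counted unnamed feature (chosen after seeing the data), gave 0 and 0. Leaving out 1 library at a time gave 0 to 1 higher and 0 to 0 lower, the 1 being bt without IgG control replicate 2. The 6 genes called higher with the block were all among the 19 of DESeq2, and of the 2 called lower 1 was among its 6.

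The difference in length slope, 0.0043, changed sign with a pseudocount of 5 CPM (-0.013), for genes averaging 100 counts or more (-0.000655), and ran from -0.020 to 0.047 without 1 library. The difference in exon number slope, 0.012, was -0.00695 and -0.00156 under the same settings and ran from -0.0093 to 0.039. The difference in abundance slope kept its sign throughout, from -0.032 to -0.0086 without 1 library and -0.010 for genes averaging 100 counts or more. The replicate block gave sign-flip p-values of 1, 0.25 and 0.75 for length, abundance and exon number, and 0.25 is the smallest that 3 pairs allow.

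The 85 more genes without counts in IgG control became 6.33 at 200 counts or over in the other inputs, and 30.2 to 128 without 1 library. The median of genes of 16 kb and over ran from 0.21 to 0.52, that of the muscle sheath genes from 1.16 to 1.91, and their number at an unadjusted p under 0.05 from 9 to 11, without 1 library. It was 7 with the block. The log2 fold change of larp ran from -0.62 to 0.76 without 1 library. Scaling by total counts moved the median of all genes to -0.04. The cause of these changes was not tested. The planned GC slope was not run.

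Counts of 0 do not show that a gene was absent. IgG control replicates 1 and 2 had more counts in all than any input library. Of these counts, 7.89% and 2.40% fell on the unnamed feature FBgn000003, so the totals overstate what was left for other genes. The cause of the missing genes was not tested. At 3 counts the floor was 0.171 to 0.265 CPM, so a gene below it cannot be told from an absent one, and 3 libraries a group cannot reach an exact p under 0.1.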

Other observations

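A feature without a symbol had very uneven counts. FBgn000003, the first feature of each list, has an identifier 1 digit shorter than the others and was singled out after its values were seen. On IgG its counts were 1113012, 420887 and 62072 (7.89%, 2.40% and 0.549% of the library) against 4777, 899 and 811 in input. The 3 anti-FLAG IP libraries had 40044, 36806 and 22186. The log2 fold change of IgG control against input was 7.80 (SE 1.67), with an edgeR adjusted p of 0.672 and a DESeq2 adjusted p of 4.37e-07. The IgG control libraries differ widely among themselves, and each lies above every input library. Its origin was not tested.

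Histone genes with polyadenylated transcripts were at a median of 0.20 over 5 genes, with 4 above 0. His2Av, the variant H2A gene, had 13763, 16533 and 9891 counts in IgG control against 9463, 10524 and 7844 in input (log2 fold change 0.39, SE 0.14). His4r, a histone H4 gene outside the repeated cluster, had 4125, 5417 and 2405 in IgG control against 2723, 2664 and 2181 in input. The groups did not overlap for either gene after scaling, and neither gene passed the adjusted threshold in edgeR (adjusted p 0.761 for both).

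Yolk and vitelline membrane genes were at a median of 0.24 over 12 genes. Of these 8 were above 0, where 3774 of all 7594 genes were. Pair 3 was at -0.10 where pairs 1 and 2 were at 0.36 and 0.34. At an unadjusted p under 0.05 none was higher and 1, fs(1)N, was lower, where 2.52% and 3.61% of all genes were. The yolk protein gene Yp1 had 26279, 40788 and 26620 counts in IgG control against 12118, 21169 and 25008 in input. Its groups overlapped after scaling (log2 fold change 0.53, SE 0.25).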
